A study of Pinus elliottii with 16 samples.

Results

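A set of 125 RNA features of slash pine cambium was lower with a resin stimulant paste than with wounding alone on both sampling days, out of 8949 features in the deposited tables, 5856 of which reached a value of 10 in 4 or more of the 16 libraries and were tested. The tissue was vascular cambium, a thin layer of dividing cells that makes wood inward and bark outward, from 16-year-old slash pines (Pinus elliottii). All of these trees, controls included, had earlier been tapped for resin for a year with a conventional paste. The paste groups had bark stripped and then received a streak of paste with 3% Ethrel (ethephon) and 20% sulfuric acid, and were sampled on day 5 and on day 15. The control groups had bark stripped with no paste and were sampled on the same days, without the inert filler of the paste either. Each of the 4 groups had 4 libraries, and tissue came from slightly above the wound. No group received the acid or the ethephon alone, and which library came from which tree is not given in the labels.

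The members were chosen by measured values. A member had all 4 paste day 5 libraries below all 4 control day 5 libraries, a mean log2(value + 1) lower by at least 1 with paste at day 5, and a mean lower by at least 0.7 with paste at day 15. Of the 380 features that were lower without overlap at day 5, 6.49% of those tested, 171 also met the size condition at that day, and 125 of those, 73.1%, met the day 15 condition. The lower level on either day is therefore what defined the set, and the values of both paste comparisons are given as a description. A value here is a normalized fragment count, which the authors obtained by scaling each library's estimated counts. The files pair no identifier with a gene name or function, so no role can be stated for any member, no pathway could be counted, and the cambium label could not be set against marker genes. In bulk tissue, fewer cells of a type and less RNA per cell cannot be told apart.

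As background, ethephon breaks down in plant tissue to ethylene, a gaseous hormone made after wounding that acts through membrane receptors and transcription factors to switch genes on and off. In conifers, wounding and ethylene are known to act on the cambium, where they lead to new resin ducts. Sulfuric acid in such pastes keeps the wound open and injures the tissue at its edge.

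Depth was 3323974 to 5203903 estimated fragments per library, with 6351 to 6901 features detected above 0. The first replicates of paste at day 5 and at day 15 held almost the same values. The median squared difference of their fragment counts was 1.71 times what counting alone gives, and in the next most similar pair of libraries it was 10.6 times. The third paste replicate of day 15 was more like the day 5 paste libraries (mean correlation 0.901 across the tested features) than like the rest of its own group (0.763). Whether the near-identical pair is 1 library under both labels was not tested. If it is, 1 of the paste groups holds 3 libraries of its own and its n of 4 is too high. Both facts bear on the day 15 condition, and the main day 15 and paste time results are also given without these 3 libraries.

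The members spanned a wide range of abundance. Their mean value over the 8 control libraries ran from 13.99 to 18203 with a median of 195, against a median of 167 over all tested features. Of the 125, 33 (26.4%) averaged at least 1000 in controls, against 15.9% of all tested features. The rule asked for controls above paste, which favours higher control values, so these comparisons are a description. The 5 most abundant members held 38.6% of the members' control signal and the 10 most abundant held 54.1%. By identifier series, 99 members were PITA loci, 20 were PITAhm loci and 6 had transcript names. The members were 2.47% of the 4004 tested PITA loci, 1.47% of the 1363 tested PITAhm loci and 1.23% of the 489 tested transcript-named features. None of the 125 carried the low-data status that 34 tested features had.

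Together the members took a small share of the RNA signal with paste. At day 5 that share was 1.51%, 0.641%, 1.18% and 0.596% in paste replicates 1 to 4, against 4.05%, 2.98%, 3.83% and 4.07% in control replicates 1 to 4. Every paste library at day 5 lay below every control, a direction that the rule fixes. At day 15 the share was 1.497%, 3.12%, 0.428% and 2.71% in paste replicates 1 to 4, against 3.41%, 2.80%, 3.94% and 3.20% in control replicates 1 to 4. Paste replicates 2 and 4 stood close to the controls on that day, with replicate 2 inside their range, while replicates 1 and 3 lay far below. The means were 0.982% ± 0.441 with paste and 3.73% ± 0.513 in controls at day 5, and 1.94% ± 1.22 with paste and 3.34% ± 0.475 in controls at day 15 (SD, n = 4 each). Without the near-identical pair the paste mean at day 15 was 2.09%, and with replicate 3 also left out it was 2.91%.

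**Figure D1:**
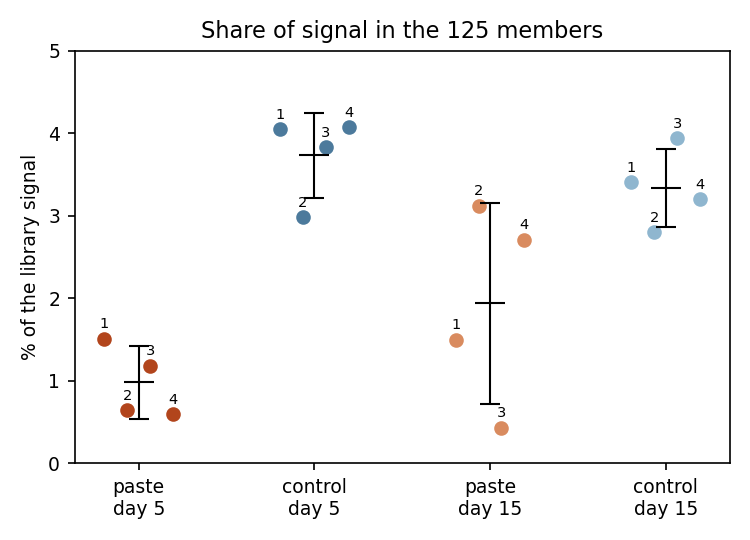
Share of each library's signal in the 125 members, in percent, by group; points are libraries with their replicate number, and bars are the mean and SD of 4. At day 15 paste replicates 2 and 4 stand at 3.12% and 2.71%, near the controls, and replicates 1 and 3 at 1.497% and 0.428%.

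At day 5 the median member had a log2 change of -2.25, a 4.74-fold lower level with paste, and the members ran from 2.01-fold to 127-fold lower. In 71 members the fall was at least 2 log2 units and in 32 at least 3. The median deviation from the control mean was -1.59, -2.47, -2.0001 and -2.50 in paste replicates 1 to 4, so replicate 1 was the least lowered. The median log2 change of all tested features was -0.05. Of the 125 members, 19 passed the test of single features at day 5 (limma, Benjamini-Hochberg adjusted p below 0.05 over 5856 features, n = 4 per group), where 0.444% of tested features passed as lower, 26 in all. At an unadjusted p below 0.05 there were 111 members, where 8.93% of tested features passed as lower. Since the rule used this contrast, neither count adds anything about the members. Those 19 had a median log2 change of -3.82 at day 5 and of -2.40 at day 15. With voom and quality weights 14 members passed (25 features in all), with a pseudocount of 0.5 also 14 (17 in all) and with no filter on low values 13 (15 in all). With only the day 5 groups in the fit 33 members passed, among 44 features in all, and with library quality weights 69, among 232. All 16 libraries share 1 error estimate, and leaving out the third paste replicate of day 15 gave 50 members among 78 features. Leaving out any 1 of the other libraries gave 6 to 23 members, among 6 to 33 features in all, with 6 without control day 5 replicate 1, control day 5 replicate 4 or paste day 5 replicate 2, 7 without control day 5 replicate 3, 8 without paste day 5 replicate 3, 9 without control day 5 replicate 2 or paste day 5 replicate 1, 11 without paste day 15 replicate 1 and 12 without control day 15 replicate 3.

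Paste levels of many members at day 5 rested on few fragments. In 27 members at least 1 paste day 5 library was listed at 0, and 1 member was listed at 0 in all 4. That member had 20.2, 9.23, 7.57 and 23.3 in control day 5 replicates 1 to 4. In 36 members the 4 paste day 5 libraries together held under 40 estimated fragments, against 3 members with so few in the 4 control day 5 libraries. For such members the size of the fall depends on the added 1 in log2(value + 1), which understates it.

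At day 15 the median member had a log2 change of -1.35, or 2.56-fold lower with paste, and the members ran from 1.63-fold to 48.2-fold lower. The median over all tested features was -0.02. In 93 members the day 15 fall was at least 1 log2 unit and in 38 at least 2. The fall was smaller at day 15 than at day 5 in 111 of the 125 members and larger in 14. Choosing members first on day 5, and with a stricter condition there, favours that direction. With the 3 doubtful libraries left out the counts were 119 and 6. At day 15 none of the 125 members was called by limma (0% of tested features, smallest adjusted p among members = 0.268), and voom with library quality weights called 0 as well. At an unadjusted p below 0.05 there were 64 members lower, where 4.68% of tested features passed as lower, and the rule used this contrast too. Without the near-identical pair that count was 47 of 220 features in all, and with replicate 3 also left out 21 of 155.

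**Figure D2:**
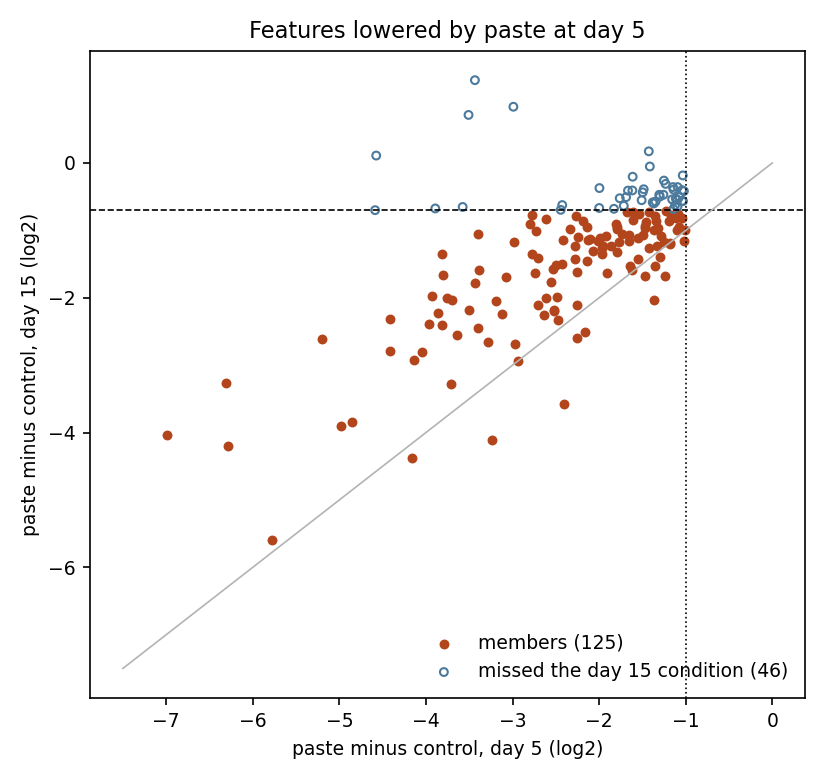
Log2 change with paste at day 5 (x axis) against day 15 (y axis) for the 171 features that met the day 5 conditions; filled points are the 125 members, open points the 46 that missed the day 15 condition, dashed and dotted lines the limits of -0.7 and -1, and the grey line equal changes. Of the members, 111 lie above the grey line, with a smaller fall at day 15.

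The 4 paste libraries of day 15 did not carry the fall evenly. The median deviation of the members from the day 15 control mean was -1.61, -0.26, -3.02 and -0.73 in paste replicates 1 to 4. Over all tested features these medians lay between -0.05 and 0.04. Replicate 3 was the lowest of the 4 paste libraries in 88 members, replicate 1 in 24, replicate 4 in 7 and replicate 2 in 6. Replicate 3 was the lowest in 39.96% of all tested features and in 70.4% of the members. Replicates 1, 4 and 2 were the lowest in 14.7%, 21.8% and 23.5% of tested features, in that order. All 125 members were below the control mean in replicate 1, 123 in replicate 3, 102 in replicate 4 and 79 in replicate 2. Paste day 15 replicate 1 was nearly identical to paste day 5 replicate 1, in which every member was low by the rule, and their correlation across the members was 0.983. Across the members, replicate 3 correlated on average at 0.908 with paste at day 5, against 0.794 within its own group.

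**Figure D3:**
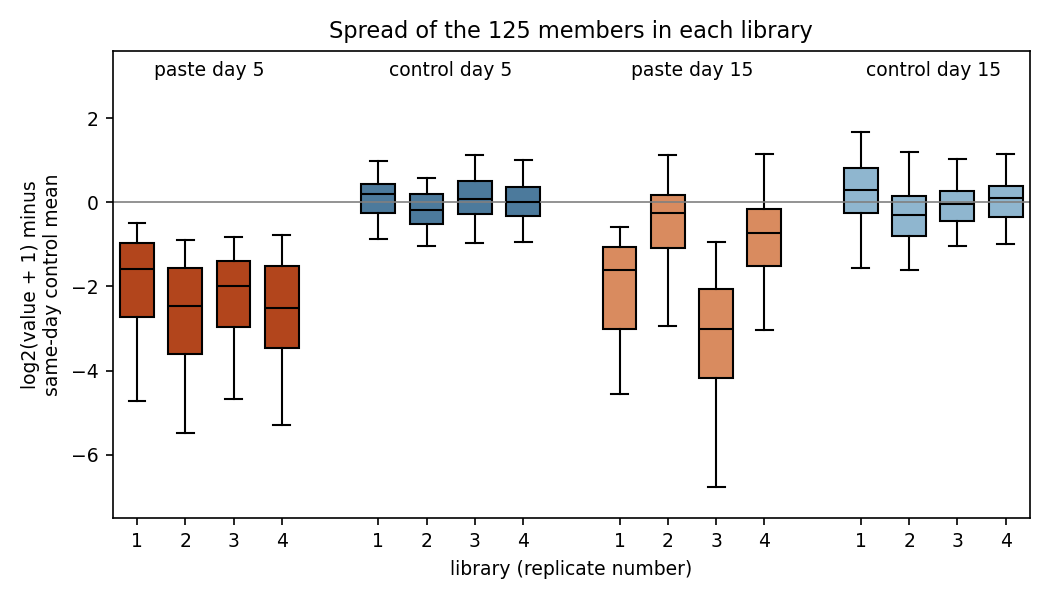
Log2(value + 1) of the 125 members minus the mean of the same-day controls, by library; boxes span the middle of the members with the median as a line, and whiskers run from the 5th to the 95th percentile. In paste day 15 replicates 2 and 4 the medians are -0.26 and -0.73, against -1.61 and -3.02 in replicates 1 and 3.

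Single libraries were also set against the range of the day 15 controls. The day 15 condition of the rule used these same values. Counts above the share of tested features were thus favoured by the choice, and they only describe the members. Replicate 3 lay below all 4 day 15 controls in 116 members, where 38% of tested features did so, and replicate 1 in 108, where 23.3% did. Replicate 4 did so in 64 members, where 21.7% of tested features did, and replicate 2 in 37, where 16.9% did. All 4 paste libraries lay below all controls in 20 members, where 1.72% of tested features did, and these 20 were free of overlap on both days. In 51 members 3 paste libraries were below all controls, where 8.38% of tested features had 3. In 41 members 2 were, where 17.9% of tested features had 2. In 10 members 1 was, where 32% had 1, and in 3 members none was, where 40% had none. Replicates 2 and 4 were both below all controls in 25 members, where 7.14% of tested features had both. The label of the set thus describes the means at day 15, while in 105 of the 125 members the libraries of that day overlapped.

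**Figure D4:**
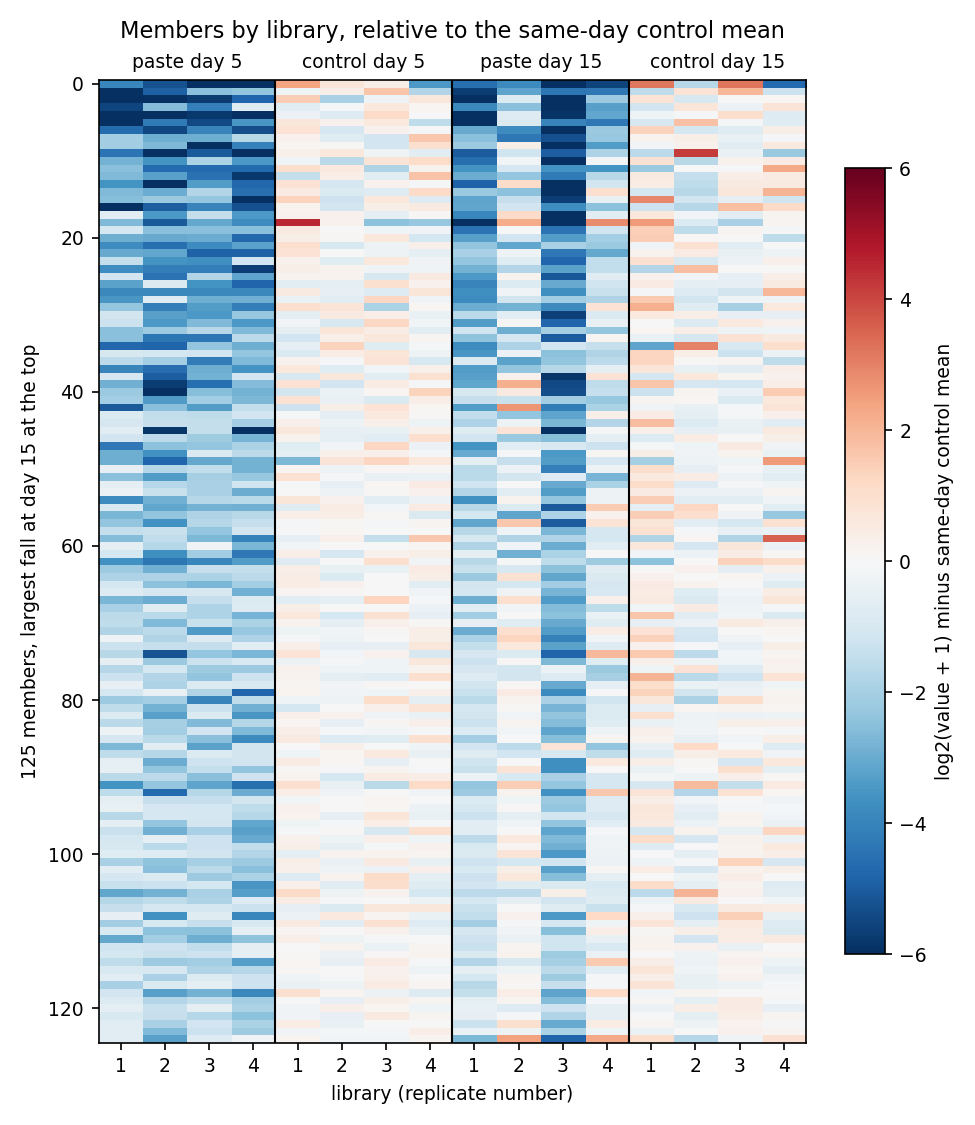
Log2(value + 1) of each member minus the mean of the same-day controls, with 1 row per member ordered by its fall at day 15 and 1 column per library; colours end at -6 and 6. Paste day 15 replicate 3 is blue over nearly the whole set, and replicates 2 and 4 are pale or red in many rows.

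Replicates 2 and 4 of paste day 15 are the libraries of that group that neither resembled day 5 nor were nearly identical to a day 5 library. Over all tested features replicate 2 was also close to day 15 control replicates 4 and 3. Its median squared difference from them was 11.3 and 11.9 times what counting alone gives, and from paste replicate 4 it was 18.2 times. The correlations were 0.935, 0.923 and 0.940 in that order. The mean of replicates 2 and 4 lay at least 0.7 below the control mean in 55 members, where 9.51% of tested features did so. It was lower by less than that in 39 members, where 2311 of the 5856 tested features were. It was at or above the control mean in 31, where 2988 tested features were. Over the 125 members the median of that mean was -0.51, against 0.01 over all tested features. The day 15 condition of the rule used replicates 2 and 4 too, so lower values than in tested features were favoured by the choice. The comparisons with tested features are therefore a description and no separate support. Replicates 1 and 3 had a median of -2.30. These classes were split on the values of replicates 2 and 4, so those values describe the split. The 55 members had a median log2 change of -2.74 at day 5 and of -2.03 at day 15. Their median deviations were -1.94, -1.14, -2.76 and -1.58 in paste day 15 replicates 1 to 4. The 31 members at or above control in those libraries had a median change of -2.19 at day 5, but their median deviations were -1.68, 0.65, -3.43 and 0.18 in paste day 15 replicates 1 to 4. For those 31 the lower day 15 mean came from replicates 1 and 3. Of the 19 members called at day 5, 17 were among the 55. The day 15 libraries share the error estimate behind those calls, so this overlap is not independent of the split.

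With paste day 15 replicate 3 left out, the rule chose 85 features, 80 of them members, and the median day 15 change of the 125 was -0.91. With the near-identical pair left out it chose 237, of which 111 were members; replicate 1 was the least lowered paste library at day 5. With the pair and paste day 15 replicate 3 all left out it chose 88, of which 55 were members, and the median day 15 change of the 125 was -0.51. Without paste day 5 replicate 1 alone it chose 229, and without any 1 of the other day 5 libraries 138 to 184. With fewer day 5 libraries the no-overlap condition is easier to meet.

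The largest day 5 fall of all tested features belonged to PITA_000058385. It had 32.8, 40.8, 119 and 44.1 in paste day 5 replicates 1 to 4, against 5263, 3871, 14677 and 6675 in control day 5 replicates 1 to 4. The groups were far apart, with the lowest control above the highest paste library by more than an order of magnitude. At day 15 it had 27.2, 1355, 38.6 and 273 in paste replicates 1 to 4, against 1957, 2251, 4944 and 1382 in control replicates 1 to 4. Paste replicate 2 came just under the lowest control, and replicates 1 and 3 were at the day 5 paste level. The paste effect on the log2 scale was -6.99 ± 0.96 (SE) at day 5, with a limma adjusted p of 0.00669, and -4.04 ± 0.96 at day 15, with a limma adjusted p of 0.285. In replicates 2 and 4 alone the mean deviation from the day 15 control mean was -1.94.

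Next by the mean fall of both days, among members without overlap on both days and at 100 or more in both control groups, came a feature with a transcript name. It had 5.18, 2.40, 8.33 and 2.85 in paste day 5 replicates 1 to 4, against 271, 74.8, 180 and 139 in control day 5 replicates 1 to 4. At day 15 it had 9.07, 4.99, 0 and 16.5 in paste replicates 1 to 4, against 210, 38.1, 48.9 and 106 in control replicates 1 to 4. Here paste replicates 2 and 4 were low as well, with a mean deviation of -2.99. The paste effect on the log2 scale was -4.85 ± 0.79 (SE) at day 5, with a limma adjusted p of 0.0157, and -3.84 ± 0.79 at day 15, with a limma adjusted p of 0.268. The paste values rest on 21 estimated fragments over the 4 day 5 libraries and 40 over the 4 day 15 libraries. The day 5 call was lost without control day 5 replicate 1, 3 or 4 or paste day 5 replicate 2 (limma adjusted p = 0.0634, 0.0647, 0.0508 and 0.0689 in that order), and with voom (adjusted p = 0.081).

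The largest day 15 fall of all tested features belonged to PITA_000056326, singled out after its values were seen. It had 14.02, 22.9, 0 and 6.20 in paste day 15 replicates 1 to 4, against 3041, 104, 3205 and 12.6 in control day 15 replicates 1 to 4. The controls themselves differed by more than 2 orders of magnitude, and control replicate 4 lay within the range of the paste libraries. At day 5 it had 10.4, 3.6002, 0.757 and 0 in paste replicates 1 to 4, against 886, 279, 217 and 14.6 in control replicates 1 to 4, with replicate 4 again the lowest control. The paste effect on the log2 scale was -5.59 ± 1.71 (SE) at day 15, with a limma adjusted p of 0.405, and -5.78 ± 1.71 at day 5, with a limma adjusted p of 0.133, so it passed on neither day.

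The most abundant members had moderate falls, with 1 exception. The most abundant, a transcript-named feature, had 11327, 3405, 7986 and 1965 in paste day 5 replicates 1 to 4, against 14370, 16022, 22731 and 16499 in control day 5 replicates 1 to 4. At day 15 it had 11779, 15176, 3594 and 11520 in paste replicates 1 to 4, against 26954, 14560, 20813 and 13676 in control replicates 1 to 4, so paste replicate 2 was inside the control range. The second most abundant, a PITA locus, averaged 6744 ± 2136 with paste and 16778 ± 2747 in controls at day 5, and 7555 ± 2438 with paste and 13148 ± 5204 in controls at day 15 (SD, n = 4 each). The third averaged 3355 ± 1814 with paste and 14432 ± 6857 in controls at day 5, and 5045 ± 3382 with paste and 9090 ± 1827 in controls at day 15 (SD, n = 4 each). The fifth averaged 2564 ± 1069 with paste and 7533 ± 2331 in controls at day 5, and 3457 ± 1474 with paste and 5410 ± 1483 in controls at day 15 (SD, n = 4 each). Among these 4 the day 5 log2 changes were -1.36 to -2.13, and none passed the adjusted threshold (limma adjusted p = 0.0676 to 0.129).

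The exception was the fourth most abundant member, a PITA locus. It had 158, 523, 1004 and 414 in paste day 5 replicates 1 to 4, against 18223, 7514, 20009 and 23415 in control day 5 replicates 1 to 4, -5.20 ± 0.80 (SE) on the log2 scale with a limma adjusted p of 0.00963. At day 15 it had 158, 610, 100 and 248 in paste replicates 1 to 4, against 571, 421, 4736 and 3005 in control replicates 1 to 4. The paste libraries of both days were alike in level, while day 15 controls 1 and 2 stood near them, and paste replicate 2 lay inside the control range. At day 15 the effect was -2.61 ± 0.80 with a limma adjusted p of 0.405.

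**Figure D5:**
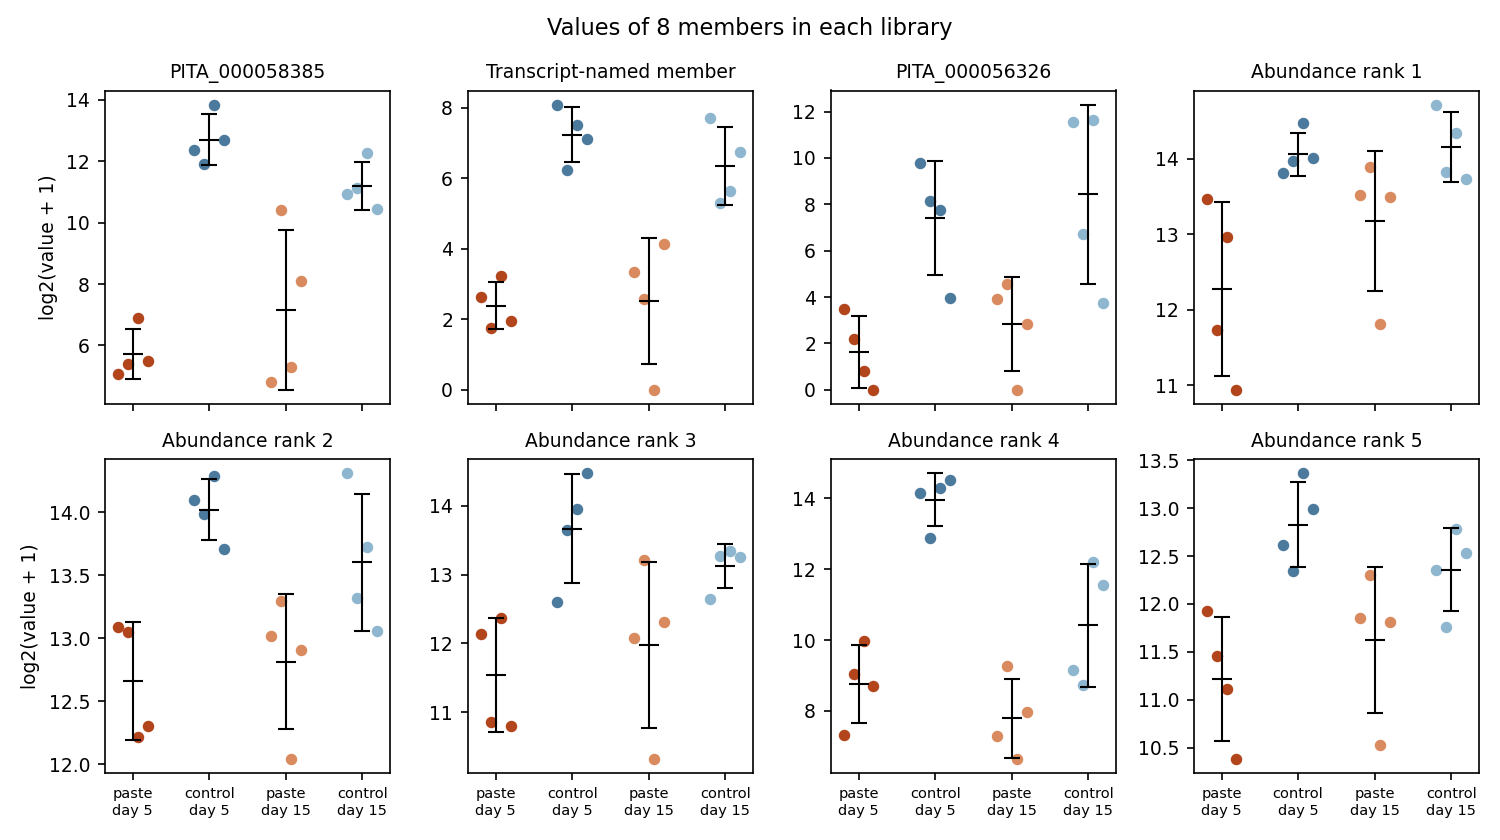
Log2(value + 1) in each library for 3 members named by size of fall and the 5 most abundant members; points are libraries in replicate order, bars the mean and SD of 4, and each panel has its own y axis. In the panels of the 5 most abundant members at least 1 paste library of day 15 lies inside the control range.

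Time after wounding was compared within each treatment. These contrasts were not part of the rule, but their libraries were, so the counts are not independent of how members were chosen. In controls the median log2 change of the members from day 5 to day 15 was -0.01, against 0.02 over all tested features, but single members ran from -3.55 to 3.52. A change of at least 1 log2 unit downward was seen in 19 members (15.2%) and upward in 18 (14.4%), against 7.72% and 7.82% of all tested features. The fourth most abundant member had the control change of -3.55 ± 0.80 (SE), with a limma adjusted p of 0.195. The 2 days did not overlap in 12 members that were higher at day 15, where 6.25% of tested features did so, and in 7 that were lower, where 6.93% did. In the fit of all 16 libraries no member passed (limma, 0 of 125, and 0% of tested features), and 14 had an unadjusted p below 0.05, where 9.99% of tested features did. Of these 14, 2 were higher at day 15, where 4.78% of tested features were, and 12 lower, where 5.21% were. Control libraries with the same replicate number deviated together across the days. With only the 8 control libraries and the replicate number as a block, 4 members passed, 3 higher and 1 lower at day 15, among 45 features in all. Without the block that fit called 2 members, 1 of them higher at day 15, among 68 features, 1.16% of those tested. Library quality weights over all groups called 8 members, 1 of them higher, among 125 features (2.13%). With voom and quality weights 3 members were called, 0 of them higher, among 44 features (0.751%). The direction of the called members thus differed between these fits.

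With paste, the median member had a log2 change of 0.71 from day 5 to day 15, against 0.02 over all tested features. On average 104 of the 125 (83.2%) were higher at day 15, where 51.8% of tested features were. The 46 features that met only the day 5 conditions were much alike, with a median of 0.61 and 80.4% higher. In both sets the paste day 5 values had been chosen low, which favours that direction. Without the near-identical pair the members' median was 0.96 with 103 higher, and with paste day 15 replicate 3 also left out 1.66 with 109 higher. No member passed (limma, 0 of 125, and 0% of tested features, smallest adjusted p = 0.819), voom with quality weights called 0, and 13 had an unadjusted p below 0.05, where 3.65% of tested features did. Of these 13, 11 were higher at day 15, where 2.19% of tested features were. The days did not overlap in 2 members that were higher at day 15, where 0.359% of tested features did so, and in 0 that were lower, where again 0.359% did. The near-identical pair stands on opposite sides of this contrast, and with it and paste day 15 replicate 3 left out 54 members passed, with only replicates 2 and 4 at day 15. That fit called 1156 features in all, 19.7% of those tested. The difference of the paste effects between the days passed in no member (limma, 0 of 125, and 0% of tested features), voom with quality weights called 0, and 7 had an unadjusted p below 0.05, where 1.06% of tested features did. All 7 had a less negative effect at day 15, where 0.615% of tested features had a difference in that direction. With the 3 libraries left out 2 members passed, among 12 features in all.

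The members varied more between libraries of a group than most features. The median SD of their log2 values was 0.88 with paste and 0.58 in controls at day 5, and 1.34 with paste and 0.72 in controls at day 15. Over all tested features it was 0.55 with paste and 0.38 in controls at day 5, and 0.65 with paste and 0.44 in controls at day 15. The 46 features that met only the day 5 conditions also varied more than tested features. Their median SD was 0.70 with paste and 0.43 in controls at day 5, and 1.12 with paste and 0.60 in controls at day 15. Within the 8 control libraries, after each day's mean was taken off, the median correlation between pairs of members was 0.08, against -0.000601 between pairs of tested features. At 8 libraries so weak a correlation is no finding. The median member stood at 0.30 above the day 15 control mean in control replicate 1, the library with the fewest fragments, and at -0.31 in control replicate 2.

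The 46 features that met the day 5 conditions but missed the day 15 condition were set apart from the members by that condition, so their day 15 values are no test. Their median day 5 change was -1.40, against -2.25 for the members. In paste day 15 replicates 1 to 4 their median deviations were -0.65, 0.50, -1.32 and 0.02, the same order of libraries as in the members. Their median control value was 78.1, against 195 for the members. The features just inside the day 15 limit of -0.7 had changes of -0.706, -0.720 and -0.723, and those just outside had -0.69974, -0.695 and -0.682. At the day 5 limit of -1 the nearest inside had -1.010, -1.022 and -1.046, and the nearest outside -0.992, -0.991 and -0.968.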

How the data were processed

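RNA was sequenced from cambium in 16 libraries, 4 for each treatment and day; sample titles gave the groups and replicate numbers. Per the labels' protocols, rRNA was depleted and libraries were read single-end on an Illumina HiSeq. FastQC, Trimmomatic 0.32, HISAT2 2.0.4 and Cufflinks 2.1.1 are named in the submitters' processing notes. Build, annotation, strand setting and multi-mapping treatment: not given in the sources used here. Near-identical or overlapping features may thus hold fragments of one another.

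Per the file headers and their values, the authors deposited a signal per feature, an estimated count over a library factor. Of the low values (up to 20.5 times the most frequent one, taken as 1 fragment), 96.6% to 98.0% lay within 0.1 of a whole number. The rest are fractional, so no count model was run. Depth in fragments covers counting error only.

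Features at 10 or more in at least 4 libraries were fitted on log2(value + 1) with limma 3.58.1 in R 4.3.3, with 4 group means, intensity trend, robust variances and 12 residual degrees of freedom. The fit was checked on simulated data with independent normal noise and, for each feature, the same spread in every group. A near-identical pair and unequal group spreads were not simulated, so the check does not cover them. Two-sided p-values were adjusted by Benjamini-Hochberg over all 5856. The labels mention 4 randomly chosen trees and do not tie libraries to them, so p-values measure the spread between libraries. The count model in the original plan was not run, because of the unit.

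The members, lists and tests were chosen with earlier results of these data known. Named members were the 2 with the largest mean fall among those without overlap on both days and at 100 or more in both control groups; the 5 most abundant and those nearest a limit are described without identifier. Same-numbered control libraries of the 2 days correlated in their deviations from the group means at 0.245 to 0.559, and each matched its own number best. The labels do not say what the number stands for.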

Additional observations from a re-analysis of the deposited data

Results flagged for a closer look

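Of the 42 groups of 4 values examined, 3 held a value far from the other 3, where chance gives about 1 in 20. Each is given as a value. At day 5 the third paste replicate had 119 for PITA_000058385, and the other 3 had 32.8 to 44.1. The first day 15 control had 6377 for the third most abundant member, and the other 3 had 9793 to 10354. Its depth was 3323974 estimated fragments, where the other 3 day 15 controls had 4547994 to 4798477.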

How the results depend on the processing

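The direction of the members' median change held under all alternatives run, but the members were chosen for that direction in these same libraries, so this is no test. Over the fits that left out 1 library it ranged from -2.33 to -2.05 at day 5 and from -1.72 to -0.91 at day 15. Other scalings, pseudocounts and filters chose 109 to 137 features by the rule; scaling to the total chose 124, of which 104 were members. Leaving out 1 library gave 85 to 229 features, leaving out the near-identical pair 237, and dropping the third paste replicate of day 15 as well 88. The fit of the controls alone with a block, the choice of PITA_000056326, and the shares, unadjusted counts and paste time values without the doubtful libraries came after seeing the data.

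Members called at day 5 numbered 33 of 44 features in all with only the groups compared, 69 of 232 with library quality weights, 10 of 12 without the near-identical pair and 87 of 314 (5.36% of tested features) when paste day 15 replicate 3 was dropped too. Leaving out 1 library gave 6 to 50. At day 15 leaving out 1 library gave 0 or 1. Members called between the days in controls numbered 2 of 68 with only the control groups, 4 of 45 with those and the replicate block, 8 of 125 with library quality weights, 3 of 44 with voom, and 2 of 39 without the 3 libraries. That last fit called 54 of 1156 (19.7% of tested features) in paste and 2 of 12 for the difference of effects. Leaving out 1 library gave 0 in each. A fit of only the groups compared was not run for that difference, which uses every group. Causes were not tested.

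With the replicate number as a block over all groups, 17 members were called at day 5, among 19 features in all (0.324%). At day 15 that fit called 3 features lower (0.0512%), 0 of them members. In the other comparisons it called 0 features. Same-numbered paste and control libraries correlated at -0.378 to 0.13, with none of 8 matching its own number best, so they were not taken as paired. PITA_000058385 kept its day 5 call in all 29 alternatives and gained one at day 15 without paste day 15 replicate 2 (log2 change -5.12, limma adjusted p = 0.0491; range of adjusted p over its alternatives 0.0491 to 0.979). Where values rest on few fragments, as for 36 members in the paste day 5 libraries, depth limits the size of the fall.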
